A study of Homo sapiens with 4 samples.

Results

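The DNA repair genes described here are 39 genes of homologous recombination, the Fanconi anaemia pathway, mismatch repair, the DNA damage checkpoint and neighbouring repair pathways, chosen by name from their known roles in repair. They are 39 of the 57820 gene identifiers counted in the study, each matched 1 identifier, and all 39 passed the filter on low counts. By role they comprised 13 genes of homologous recombination, 4 of break sensing and end resection, 7 of the Fanconi anaemia pathway, 2 of mismatch repair, 6 of the checkpoint, 4 of end joining, and 3 of single-strand break and excision repair. RNA sequencing had been done on Daoy, an established human medulloblastoma line, to ask which genes and pathways differ when ARID1B, a DNA-binding subunit of the BAF chromatin remodelling complexes, is lowered by a short hairpin RNA (shRNA). A single library was labelled ARID1B shRNA; it came from a polyclonal Daoy population carrying the hairpin in the doxycycline-inducible lentiviral vector tet-pLKO-puro. The other 3 libraries were labelled wild type and numbered 1 to 3, the order in which their values are given; the series design names cells with the empty vector and parental cells as controls, and no label tells which library is which kind. The labels give the same doxycycline treatment, 1 µg/ml for 72 h, for all 4 libraries. The library labelled ARID1B shRNA held 8792848 reads assigned to genes, against 12619786 to 15390106 in the wild-type libraries.

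Homologous recombination repairs double-strand breaks from a sister chromatid: the MRN complex senses the break and starts to resect it, BRCA1 and BRCA2 with their partners load the strand-exchange filament, and helicases and nucleases resolve the joint molecules. The Fanconi anaemia pathway unhooks crosslinks between DNA strands through a core ubiquitin ligase that modifies FANCD2 and FANCI, and hands the break to homologous recombination. The kinases ATM and ATR signal damage to CHEK2 and CHEK1, end joining seals breaks without a template in any phase of the cell cycle, and many recombination genes are transcribed mainly in S and G2 phase under E2F factors.

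The label was not borne out by the target's mRNA. ARID1B measured 175 CPM (reads per 1000000 of the scaled library) in the library labelled ARID1B shRNA, against 164, 88.0 and 72.9 CPM in the 3 wild-type libraries (edgeR log2 fold change 0.69, SE 0.46, adjusted p = 0.399). Without wild-type library 1 the log2 fold change was 1.12 (edgeR adjusted p = 0.0260), higher and not lower. It was 0.57 without library 2 and 0.47 without library 3, and did not pass (edgeR adjusted p = 0.560 and 0.546). With the trend on GC content and transcript length removed it was 0.35 (edgeR adjusted p = 0.736). ARID1B then no longer lay above every wild-type library. Each direction below is therefore that of a single unreplicated library named by its label, and p-values measure only the spread between the wild-type libraries, which nothing in the labels says were separate cultures. Of 19 medulloblastoma and neural markers, 15 passed the filter. ATOH1, which marks granule neuron precursors, had 0 counts in all 4 libraries, and BARHL1, EOMES and NEUROD1 also had too few reads. Of the 15, 13 were not called. In the library labelled ARID1B shRNA these ran from 1.03 CPM (TUBB3) to 105 CPM (SFRP1), with PAX6 at 22.0, PTCH1 at 19.5 and ZIC1 at 16.2 CPM. VIM measured 937 CPM in the library labelled ARID1B shRNA against 2658, 2443 and 2439 CPM in wild type (edgeR log2 fold change -1.42, adjusted p = 0.0213). With the trend removed these were -1.29 and 0.0207. ZIC2, a cerebellar transcription factor gene and the other marker called, measured 24.8 CPM against 8.93, 10.6 and 8.14 CPM (edgeR log2 fold change 1.43, adjusted p = 0.0430; 0.81 and 0.208 with the trend removed). Neither marker passed when wild-type library 2 was left out (edgeR adjusted p = 0.0567 for VIM and 0.0629 for ZIC2), and ZIC2 did not pass without library 3 (0.0923). The 7 markers of blood cells and hepatocytes had at most 5 reads in any library. Of 4 epithelial markers 2 passed the filter, and of 3 endothelial markers 1. In wild type KRT5 had 12, 32 and 16 reads, EPCAM 22, 8 and 14, and VWF 6, 5 and 11. The library labelled ARID1B shRNA had 2, 6 and 7 reads of these genes. None was called (edgeR log2 fold changes -2.64, -0.64 and 0.59, adjusted p = 0.196, 0.653 and 0.636). Genes rich in G and C read higher in the library labelled ARID1B shRNA than in wild type: over the 2594 tested genes with less than 40% GC the median log2 fold change was -0.29, and over the 2134 genes with 60% or more it was 1.13. For that reason called genes and list medians below are also given with every library's trend on GC content and transcript length removed.

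Of the 39 repair genes 1 rose, XRCC3, none fell, and 38 did not pass the edgeR test at an adjusted p of 0.05. Over all 17024 tested genes, edgeR called 3.65% higher and 0.834% lower. DESeq2 called XRCC3 higher and MSH6 lower, against 7.72% and 2.47% of all tested genes. The repair genes nevertheless lay mostly below wild type: 36 of 39 had a negative log2 fold change, against 53.2% of all tested genes, and 34 of 39 lay below every wild-type library, against 37.9%. Only 3 lay above every wild-type library, against 35.4% of all tested genes. Their median log2 fold change was -0.30, against -0.051 over all tested genes. These are descriptions of 1 library; no test of the list was made. With the trend removed none of the 39 passed, against 2.07% of all tested genes higher and 1.04% lower, and the smallest edgeR adjusted p was 0.0774, for FANCG. In that fit 34 of 39 had a negative log2 fold change (55.0% of all tested genes), 27 lay below every wild-type library (38.7%), 2 lay above every one (32.4%), and the median was -0.20 against -0.062. At an unadjusted p below 0.05, 11 of the 39 were then lower (28.2%), against 12.4% of all tested genes. By GC content, the 13 repair genes under 40% GC had a median of -0.45 where all tested genes of that band had -0.29, and the 14 between 40% and 45% had -0.33 where all had -0.24. Once the trend was removed these medians were -0.20 against -0.033 and -0.13 against -0.045. Below every wild-type library as measured lay 12 of the 13 and 14 of the 14. The shares of all tested genes in those bands were 58.2% and 53.9%, higher than the 37.9% over all tested genes. As measured, 12 of the 39 (30.8%) were lower at an unadjusted p below 0.05, against 9.79% of all tested genes, with edgeR adjusted p between 0.0595 and 0.194. The 95% interval of the log2 fold change lay within a 2-fold change either way for 27 of the 39. In RNA from a whole culture, fewer cells in S and G2 phase and less of each mRNA per cell cannot be told apart.

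**Figure D1:**
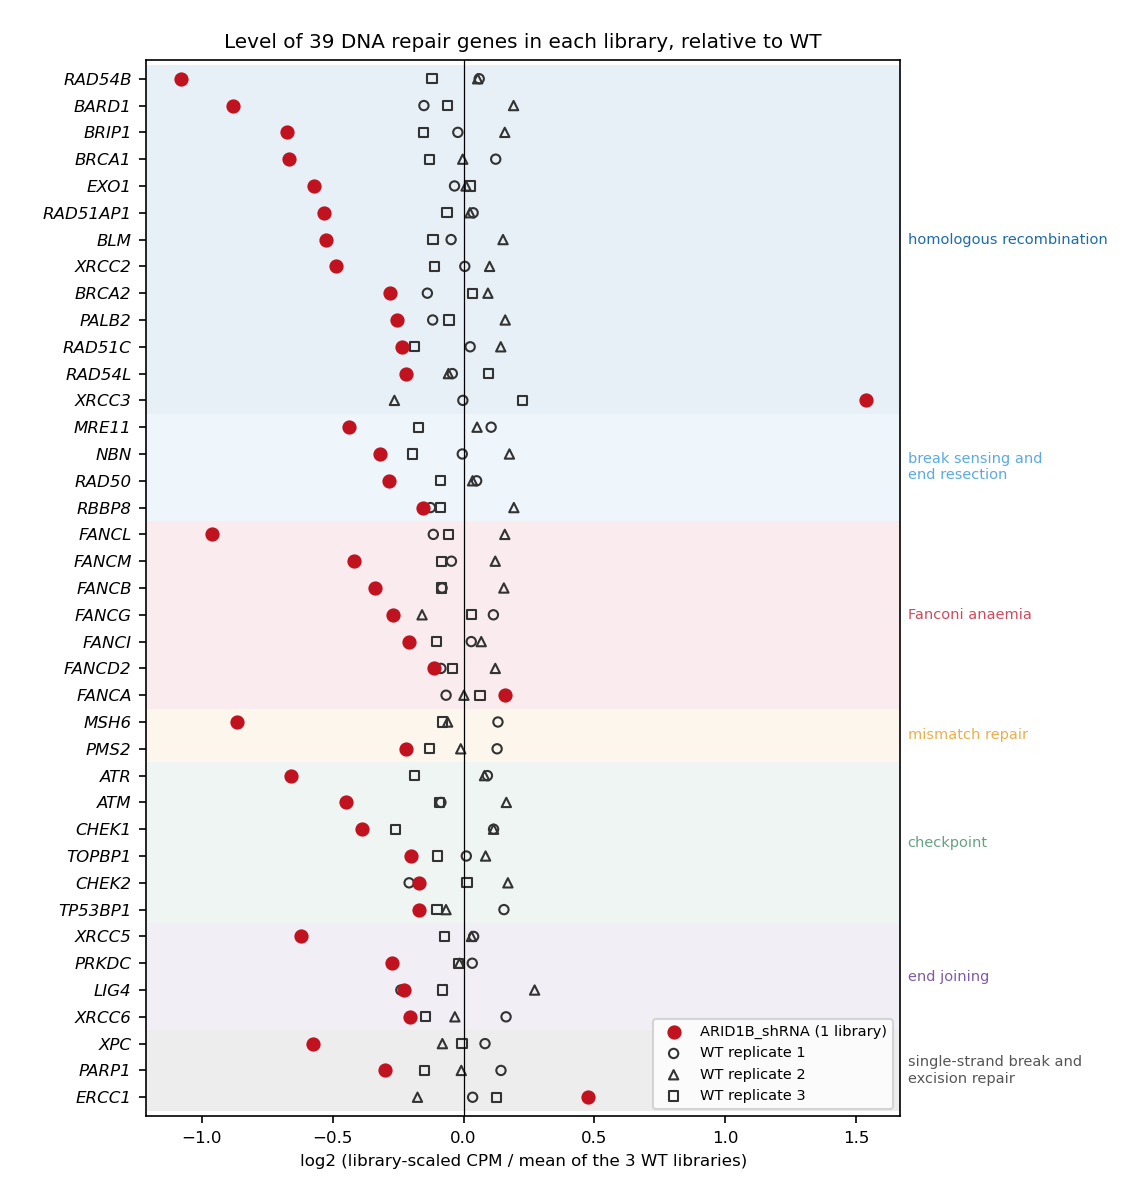
Level of each of the 39 genes in each library as log2 of its library-scaled CPM over the mean of the 3 wild-type libraries; filled points are the single library labelled ARID1B shRNA and open symbols the wild-type libraries, with genes grouped by role. The filled point lies left of every open symbol for 34 genes and right of them for XRCC3, FANCA and ERCC1.

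The promoters of 4 of these genes are shown as examples that carry CCAAT or words bound by E2F factors, which drive many S-phase genes. They are XRCC3, the gene that rose, and MSH6, EXO1 and XPC, which were among the 12 lower genes. Because they were picked by fold change as well, they cannot show whether the words go with it. Each window runs from 250 bases before to 50 bases after the start, read 5' to 3' on the gene's strand from RefSeq (GRCh38.p14), with CCAAT and the E2F words TTTCGCGC, TTTGGCGC, TTTCCCGC and TTTGCCGC in capitals, each searched on both strands and none overlapping another in these windows.
XRCC3: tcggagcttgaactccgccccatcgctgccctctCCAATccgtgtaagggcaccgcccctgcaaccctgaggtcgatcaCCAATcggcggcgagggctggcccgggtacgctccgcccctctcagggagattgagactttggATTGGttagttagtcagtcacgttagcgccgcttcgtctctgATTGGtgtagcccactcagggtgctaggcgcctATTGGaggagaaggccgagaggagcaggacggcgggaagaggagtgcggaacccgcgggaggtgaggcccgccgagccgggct
MSH6: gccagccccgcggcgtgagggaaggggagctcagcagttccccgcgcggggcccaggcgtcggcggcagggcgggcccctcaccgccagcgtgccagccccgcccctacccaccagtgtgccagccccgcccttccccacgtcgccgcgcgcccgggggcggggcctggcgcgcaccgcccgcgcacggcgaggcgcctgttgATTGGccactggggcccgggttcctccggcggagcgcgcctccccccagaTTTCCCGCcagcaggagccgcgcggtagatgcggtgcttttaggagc
EXO1: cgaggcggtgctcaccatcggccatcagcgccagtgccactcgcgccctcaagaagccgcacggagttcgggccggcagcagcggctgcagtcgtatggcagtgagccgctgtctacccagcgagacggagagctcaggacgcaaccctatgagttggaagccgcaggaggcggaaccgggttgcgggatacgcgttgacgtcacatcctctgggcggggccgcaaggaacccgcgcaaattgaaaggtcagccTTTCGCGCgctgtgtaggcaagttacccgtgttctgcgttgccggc
XPC: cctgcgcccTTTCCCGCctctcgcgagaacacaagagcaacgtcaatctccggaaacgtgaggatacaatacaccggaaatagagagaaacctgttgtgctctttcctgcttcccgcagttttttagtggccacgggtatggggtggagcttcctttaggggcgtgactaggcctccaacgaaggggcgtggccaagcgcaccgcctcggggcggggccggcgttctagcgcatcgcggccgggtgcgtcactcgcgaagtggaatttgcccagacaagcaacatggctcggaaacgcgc
The windows lie at chr14:103715402-103715701 (minus strand) for XRCC3, chr2:47782895-47783194 (plus strand) for MSH6, chr1:241847954-241848253 (plus strand) for EXO1 and chr3:14178552-14178851 (minus strand) for XPC. XRCC3 holds 5 matches to CCAAT and none to the E2F words, MSH6 holds 1 of each, and EXO1 and XPC hold 1 E2F word each. RefSeq windows matched 34 of the 39 genes, and 9 of these 34 (26.5%) held an E2F word, against 3.31% of all 35116 windows in the table. Those not shown were XRCC2, PMS2, TOPBP1, XRCC6, FANCD2 and FANCA, at log2 fold changes of -0.49, -0.22, -0.20, -0.20, -0.11 and 0.15. CCAAT was in 16 (47.1%), against 34.6%. Of the other words searched, GGGCGG (GC box) was in 27 (79.4%), against 45%. TGACGTCA (CRE) was in 4 (11.8%), against 1.85%, and TTTGAA (CHR) in 2 (5.88%), against 15.2%. The 35116 windows were neither limited to the tested genes nor matched for GC content. The 9 genes with an E2F word had a median log2 fold change of -0.22, in a range of -0.87 to 0.15, and the 25 without one had -0.30. The order of these medians turned with the trend removed, to -0.25 with an E2F word and -0.18 without. A match is a string of letters in the window and was not shown to be a bound site.

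XRCC3, a paralogue of the recombinase that works with RAD51C in the CX3 complex late in recombination, was the single gene that rose. It measured 52.6 CPM in the library labelled ARID1B shRNA (95% Poisson interval 47.9 to 57.6, counting error only), against 18.1, 15.1 and 21.2 CPM in the 3 wild-type libraries. The value lay above all 3 wild-type values, 2.90-fold higher in the fit (edgeR log2 fold change 1.53, SE 0.25, adjusted p = 0.0351). XRCC3 has the highest GC content of the 39, 63.8%, and with the trend removed it measured 26.3 CPM against 23.2, 24.5 and 20.4 CPM (edgeR log2 fold change 0.21, SE 0.18, adjusted p = 0.506). The call also ended without wild-type library 2 (edgeR adjusted p = 0.0594) and without library 3 (0.0502). In the GENCODE annotation, 76.7% of the exonic bases of XRCC3 overlap exons of KLC1, a kinesin light chain gene on the opposite strand. The strand setting and mode of the counting are not stated. Whether reads from the shared bases were counted for XRCC3, for KLC1 or for neither is therefore not known. Reads set aside as ambiguous between genes equalled 7.67% of genic reads in the library labelled ARID1B shRNA. In wild-type libraries 1 to 3 they equalled 7.1%, 6.86% and 7.21%. KLC1 itself measured 36.0 CPM in the library labelled ARID1B shRNA against 8.15, 7.58 and 10.3 CPM in wild type (edgeR log2 fold change 2.05, adjusted p = 0.0249; 1.34 and 0.0331 with the trend removed), and its part in the XRCC3 count was not tested. KLC1 did not pass without wild-type library 2 (edgeR adjusted p = 0.0538) nor, with the trend removed, without library 2 or 3 (0.0825 and 0.140). The partner RAD51C, at 42.2% GC, measured 20.8 CPM against 24.9, 27.0 and 21.5 CPM and did not pass (edgeR log2 fold change -0.24, adjusted p = 0.572).

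BRCA1, BARD1 and BRIP1 lay below wild type without passing the test. BRCA1, the ubiquitin ligase that channels breaks into recombination, measured 57.4 CPM in the library labelled ARID1B shRNA against 99.2, 90.9 and 83.2 CPM in the 3 wild-type libraries (edgeR log2 fold change -0.67, SE 0.19, adjusted p = 0.109). BARD1, its obligate partner in the ligase, measured 15.1 CPM against 25, 31.7 and 26.6 CPM (edgeR log2 fold change -0.88, SE 0.26, adjusted p = 0.112). BRIP1, the helicase that binds the BRCT repeats of BRCA1, measured 38.9 CPM against 61.2, 69.3 and 55.9 CPM (edgeR log2 fold change -0.68, SE 0.21, adjusted p = 0.129). All 3 lay below every wild-type library, yet none passed the test; with the trend removed their log2 fold changes were -0.48, -0.63 and -0.42. Per kilobase of transcript, BRCA1 stood to BARD1 at a ratio of 2.88 in the library labelled ARID1B shRNA, inside the range of 2.17 to 3.0 in wild type.

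BRCA2 and PALB2 lay nearer to wild type. PALB2, which bridges BRCA1 and BRCA2, measured 24.9 CPM in the library labelled ARID1B shRNA against 27.4, 33.2 and 28.6 CPM in wild type. BRCA2, which loads the recombinase on single-stranded DNA, measured 33.3 CPM against 36.8, 43.2 and 41.5 CPM. Both sat below the wild-type range by a small margin, with log2 fold changes of -0.26 (95% interval -0.83 to 0.31) and -0.28 (-0.80 to 0.24) and edgeR adjusted p of 0.514 and 0.441, and both lay within it once the trend was removed. The PALB2 to BRCA2 ratio per kilobase was 2.24 in the library labelled ARID1B shRNA and 2.07 to 2.30 in wild type.

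Among the factors that act on the filament and on joint molecules, RAD54B had the lowest fold change of all 39. RAD54B, a DNA translocase related to RAD54L, measured 3.31 CPM in the library labelled ARID1B shRNA against 7.30, 7.27 and 6.44 CPM in wild type (edgeR log2 fold change -1.08, SE 0.34, adjusted p = 0.131). That value rests on 29 reads, with a Poisson interval of 2.22 to 4.75 CPM, and 59.1% of its exonic bases are shared with the nested gene FSBP. No other member had so few reads in any library. RAD54L, which drives the filament into the intact duplex, measured 34.2 CPM against 38.7, 38.3 and 42.6 CPM (edgeR log2 fold change -0.22, adjusted p = 0.526). RAD51AP1, which stimulates strand pairing, measured 56.5 CPM against 83.8, 83.1 and 78.2 CPM (edgeR log2 fold change -0.53, adjusted p = 0.137). XRCC2, a recombinase paralogue of the BCDX2 complex, measured 43.0 CPM against 60.4, 64.5 and 55.7 CPM (edgeR log2 fold change -0.49, adjusted p = 0.194). These 4 genes also lay below every wild-type library with the trend removed, at log2 fold changes between -0.82 and -0.25. EXO1, the exonuclease of long-range resection and of mismatch repair, measured 59.7 CPM against 86.7, 89.4 and 90.3 CPM, 32.8% lower in the fit, with wild-type values that spread little (edgeR log2 fold change -0.57, SE 0.17, adjusted p = 0.116). BLM, the helicase that dissolves double Holliday junctions, measured 32.2 CPM against 44.8, 51.4 and 42.7 CPM (edgeR log2 fold change -0.52, adjusted p = 0.201). Of the 13 recombination genes 12 thus lay below every wild-type library, with a median of -0.52 as measured and -0.32 with the trend removed, where 9 lay below and XRCC3 above.

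**Figure D2:**
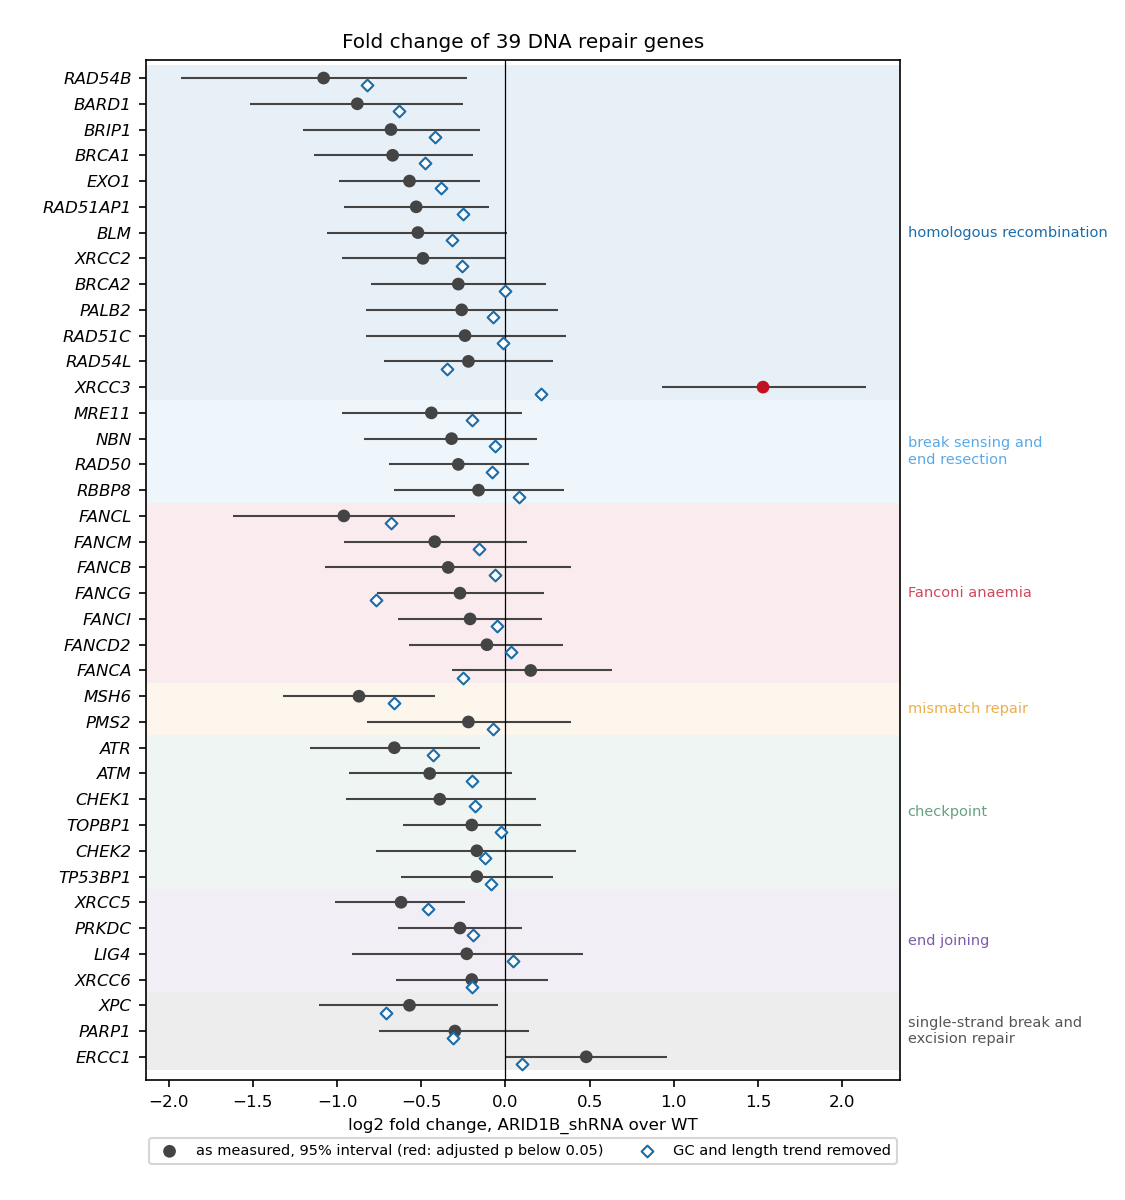
Log2 fold change of each gene, library labelled ARID1B shRNA over wild type, as measured with its 95% interval (circles and lines) and after removal of the trend on GC and length (diamonds). The interval of XRCC3 runs from 0.93 to 2.14 and its diamond stands at 0.21; most other diamonds lie nearer to 0 than their circles, while FANCG moved to -0.77 and XPC to -0.71.

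None of the genes that sense breaks and start resection passed the test. MRE11, the nuclease of the MRN complex, measured 33.8 CPM in the library labelled ARID1B shRNA against 49.2, 47.4 and 40.6 CPM in the 3 wild-type libraries. RAD50, the ATPase that bridges DNA ends, measured 104 CPM against 131, 129.6 and 119 CPM. NBN, which recruits ATM to the complex, measured 71.3 CPM against 88.7, 100.5 and 77.8 CPM. These 3 subunits of MRN each lay below the wild-type range. RBBP8, which encodes the resection factor CtIP, measured 67.8 CPM against 69.2, 86.3 and 71.1 CPM. All 4 were below each wild-type library, RBBP8 by the smallest margin, and the log2 fold changes were -0.44, -0.28, -0.32 and -0.16, with edgeR adjusted p of 0.267 to 0.666. As a group their median was -0.30, and -0.073 with the trend removed. NBN and RBBP8 lay within the wild-type range once the trend was removed. In the GENCODE annotation used for exon overlap, exons of other genes cover 79.7% of the exonic bases of RAD50, nearly all on the same strand. The annotation release behind the counts is not stated and may lack these genes. Whether the overlap affected the RAD50 count is therefore not known. The ratio of NBN to RAD50 per kilobase was 1.16 in the library labelled ARID1B shRNA and 1.11 to 1.31 in wild type, and that of MRE11 to RAD50 was 0.390 against 0.412 to 0.453.

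In the Fanconi anaemia group no gene passed. FANCL had the lowest fold change as measured and FANCG the lowest with the trend removed. FANCL, the catalytic RING subunit of the core complex, measured 9.35 CPM in the library labelled ARID1B shRNA against 16.8, 20.3 and 17.5 CPM in wild type (edgeR log2 fold change -0.96, SE 0.27, adjusted p = 0.103; -0.68 with the trend removed). FANCG, a scaffold that joins FANCA to the core complex, measured 49.5 CPM against 64.5, 53.4 and 60.9 CPM (edgeR log2 fold change -0.27, adjusted p = 0.444). At 58.1% GC, FANCG read 38.0 CPM against 69.4, 66.8 and 58.3 CPM with the trend removed (edgeR log2 fold change -0.77, SE 0.17, adjusted p = 0.0774). FANCA, also of the core complex, measured 41.1 CPM against 35.2, 36.9 and 38.5 CPM, above every wild-type library (edgeR log2 fold change 0.15, SE 0.19, adjusted p = 0.651), and the sign turned with the trend removed (-0.25). Exons on the other strand cover 23.6% of its exonic bases (ZNF276) and 19.7% of those of FANCL (VRK2). FANCB, the core subunit that pairs with FANCL, measured 7.53 CPM against 9.0, 10.6 and 8.98 CPM. FANCM, the translocase that anchors the core complex to DNA, measured 24.5 CPM against 31.7, 35.6 and 30.9 CPM. Neither passed, at -0.34 and -0.42 on the log2 scale (edgeR adjusted p = 0.507 and 0.292). FANCD2 and FANCI, which form the clamp that the ligase modifies, lay close to wild type. FANCD2 measured 64.7 CPM against 65.9, 76.1 and 67.9 CPM (log2 fold change -0.11, 95% interval -0.57 to 0.34), and FANCI measured 72.7 CPM against 85.8, 88.1 and 78.3 CPM (-0.21, interval -0.64 to 0.22), with edgeR adjusted p of 0.733 and 0.490. FANCI stood to FANCD2 at 1.24 per kilobase in the library labelled ARID1B shRNA, against 1.43, 1.27 and 1.27 in wild type. The group's median was -0.27 as measured and -0.16 with the trend removed.

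MSH6, the mismatch-binding partner in the MutS-alpha dimer, came nearest to the threshold among the genes that were lower. It measured 110.4 CPM in the library labelled ARID1B shRNA (Poisson interval 104 to 118), against 220.5, 193 and 190.4 CPM in the 3 wild-type libraries. That is 45.1% lower, clear of all 3 wild-type values, at a log2 fold change of -0.87 (SE 0.18, 95% interval -1.32 to -0.42, edgeR adjusted p = 0.0595). Without the trend it measured 123 CPM against 211, 177 and 195 CPM (edgeR log2 fold change -0.66, SE 0.15, adjusted p = 0.0863). MSH6 passed with DESeq2 (adjusted p = 0.0113), with upper-quartile scaling (edgeR adjusted p = 0.0496) and with no filter on low counts (7.75e-04). Over its 14 alternatives the adjusted p ran from 7.75e-04 to 0.235, with 3 below 0.05, and the log2 fold change from -0.99 to -0.59. Its promoter window, printed with that of XRCC3, holds an E2F word and a CCAAT match. FBXO11, whose exons on the other strand overlap 16.2% of the exonic bases of MSH6, measured 50.8 CPM against 47.0, 47.9 and 46.5 CPM. PMS2, the nuclease subunit of MutL-alpha, measured 15.4 CPM against 19.6, 17.8 and 16.4 CPM (edgeR log2 fold change -0.22, adjusted p = 0.609). Its count is uncertain, since the near-identical copies PMS2P1 and PMS2CL held reads equal to 79.4% and 43.8% of those of PMS2.

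At the checkpoint, the fold change was lowest for ATR and nearest to 0 for CHEK2, TOPBP1 and TP53BP1. ATR, the kinase of stalled forks, measured 54.4 CPM in the library labelled ARID1B shRNA against 91.4, 90.7 and 75.3 CPM in wild type (edgeR log2 fold change -0.66, SE 0.20, adjusted p = 0.125; -0.43 with the trend removed). CHEK1, the kinase ATR activates, measured 49.6 CPM against 70.2, 70.2 and 54.1 CPM (edgeR log2 fold change -0.39, adjusted p = 0.344). ATM, the kinase of double-strand breaks, measured 60.1 CPM against 77.2, 91.8 and 76.9 CPM (edgeR log2 fold change -0.45, adjusted p = 0.228). All 3 kinases lay below the wild-type range, CHEK1 by the smallest margin. CHEK2, the effector kinase of ATM, lay inside the wild-type range at 27.8 CPM against 27.1, 35.2 and 31.6 CPM. TOPBP1, the activator of ATR, measured 198 CPM against 229, 241 and 212 CPM, and TP53BP1, which shields ends from resection, measured 160.3 CPM against 200.5, 172 and 168 CPM. CHEK2, TOPBP1 and TP53BP1 did not pass (edgeR adjusted p = 0.690, 0.488 and 0.590), at -0.17, -0.20 and -0.17 on the log2 scale as measured and -0.12, -0.027 and -0.087 with the trend removed. Exons on the other strand overlap 28.7% of the exonic bases of TP53BP1 (TUBGCP4) and 16.4% of those of ATR (EIF2AK1P1). Per kilobase, ATR stood to TOPBP1 at 0.205 in the library labelled ARID1B shRNA, below the 0.265 to 0.298 of wild type. The ratios of ATM to CHEK2 (0.421 against 0.474 to 0.555) and ATR to CHEK1 (0.552 against 0.650 to 0.701) were below wild type too. These ratios were set out after the values were seen and not tested.

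Both subunits of Ku are among the most abundant repair transcripts, and XRCC5 had the lower fold change of the pair. XRCC5, which encodes Ku80, measured 569 CPM in the library labelled ARID1B shRNA against 898, 893 and 832 CPM in wild type (edgeR log2 fold change -0.62, SE 0.16, adjusted p = 0.0843; -0.46 and 0.108 with the trend removed). XRCC6, which encodes Ku70, measured 612 CPM against 789, 689 and 637 CPM (edgeR log2 fold change -0.20, SE 0.18, adjusted p = 0.518). The XRCC5 to XRCC6 ratio per kilobase was 0.669 in the library labelled ARID1B shRNA, below the 0.820, 0.934 and 0.942 of wild-type libraries 1, 2 and 3; it too was chosen after the values were seen, and no test was made. PRKDC, the DNA-dependent kinase that Ku recruits, measured 438 CPM against 541, 523 and 522 CPM (edgeR log2 fold change -0.27, SE 0.15, adjusted p = 0.313). LIG4, the ligase of end joining, lay inside the wild-type range at 24.2 CPM against 24.0, 34.2 and 26.8 CPM (edgeR log2 fold change -0.23, adjusted p = 0.638). Of all 39 it varied most among the wild-type libraries, with a coefficient of variation of 18.7%. PRKDC varied least, at 2.06%; the median was 9.68% over the 39 and 16.8% over all tested genes.

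PARP1, the sensor of strand breaks that makes poly(ADP-ribose), measured 317 CPM in the library labelled ARID1B shRNA against 431, 388 and 352 CPM in wild type (edgeR log2 fold change -0.30, adjusted p = 0.346; -0.31 with the trend removed). XPC, the damage sensor of nucleotide excision repair, measured 22.6 CPM against 35.6, 31.8 and 33.5 CPM (edgeR log2 fold change -0.57, SE 0.22, adjusted p = 0.173). After removal of the trend it measured 21.0 CPM against 36.0, 34.2 and 32.8 CPM (edgeR log2 fold change -0.71, SE 0.17, adjusted p = 0.0903). ERCC1, the partner of the repair nuclease ERCC4, measured 78.0 CPM against 57.4, 49.6 and 61.1 CPM, above every wild-type library (edgeR log2 fold change 0.48, SE 0.19, adjusted p = 0.199); with the trend removed the log2 fold change was 0.10. Exons of other genes on the opposite strand cover 30.4% of the exonic bases of XPC and 28.6% of those of ERCC1.

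**Figure D3:**
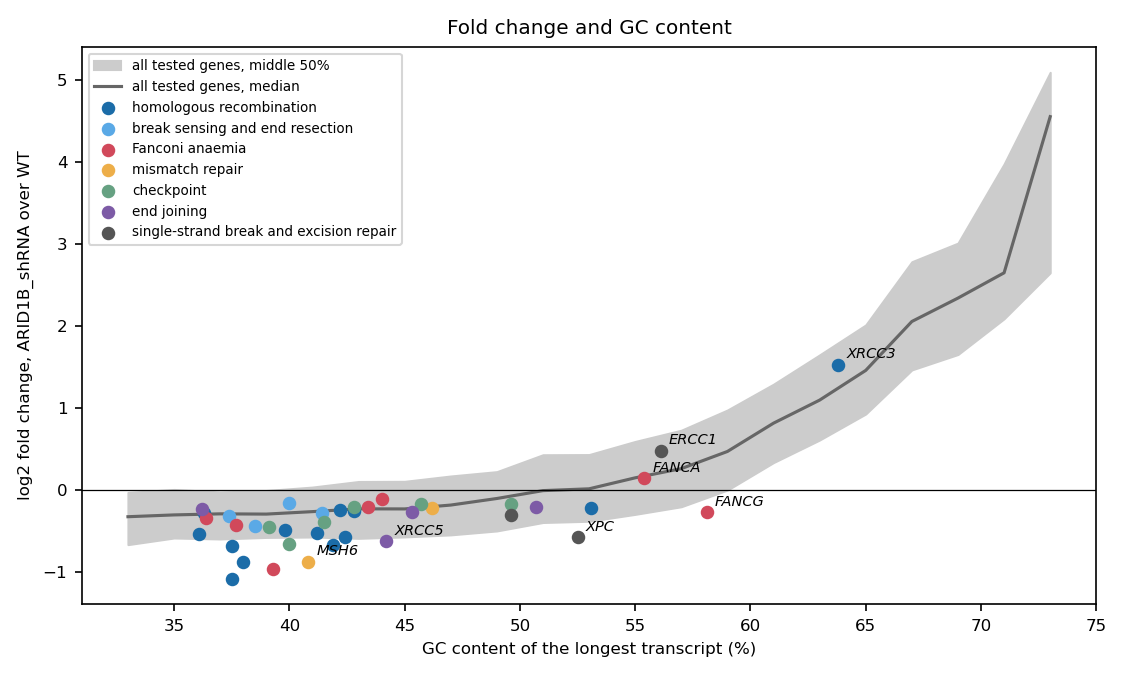
Log2 fold change of the library labelled ARID1B shRNA over wild type against the GC content of the longest transcript, in percent, for the 39 repair genes (points, coloured by role) over the median and middle 50% of all tested genes in steps of 2% GC. XRCC3, at 63.8% GC, lies within the middle 50% of its GC range, and FANCG at 58.1% lies below the middle 50%.

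Among the 39 genes GC content and log2 fold change went together, with Pearson's r of 0.68 and Spearman's rho of 0.56, across genes of the same 4 libraries and so given as a description. With the trend removed these were 0.058 and 0.025. The 3 genes above every wild-type library, XRCC3, ERCC1 and FANCA, had 63.8%, 56.1% and 55.4% GC, whereas 27 of the 39 had less than 45% GC. The wild-type libraries were not level with each other either: library 3 was the lowest of the 3 for 24 of the 39 genes, and library 2 the highest for 18.

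Per kilobase of transcript, the wild-type means of the 39 ran from 2.28 to 260.2 CPM per kb. XRCC6 stood at 226 CPM per kb in the library labelled ARID1B shRNA and 260.2 ± 28.7 in wild type (SD, n = 3), and XRCC5 at 151 and 233 ± 9.73, so that the wild-type means of these neighbours lay within their summed SDs. PARP1 followed at 80.0 and 98.7 ± 9.94 CPM per kb, and PRKDC, TOPBP1 and RAD51AP1 lay close together at 39.1 ± 0.808, 36.9 ± 2.37 and 36.6 ± 1.36 CPM per kb in wild type. At the low end were FANCM, BRCA2, FANCB and RAD54B, with 3.45, 2.78, 2.48 and 1.08 CPM per kb in the library labelled ARID1B shRNA and 4.60, 3.38, 3.13 and 2.28 CPM per kb in wild type. XRCC3, ranked 35 of 39 in wild type, stood at 14.3 CPM per kb in the library labelled ARID1B shRNA against 4.94 ± 0.838 in wild type.

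**Figure D4:**
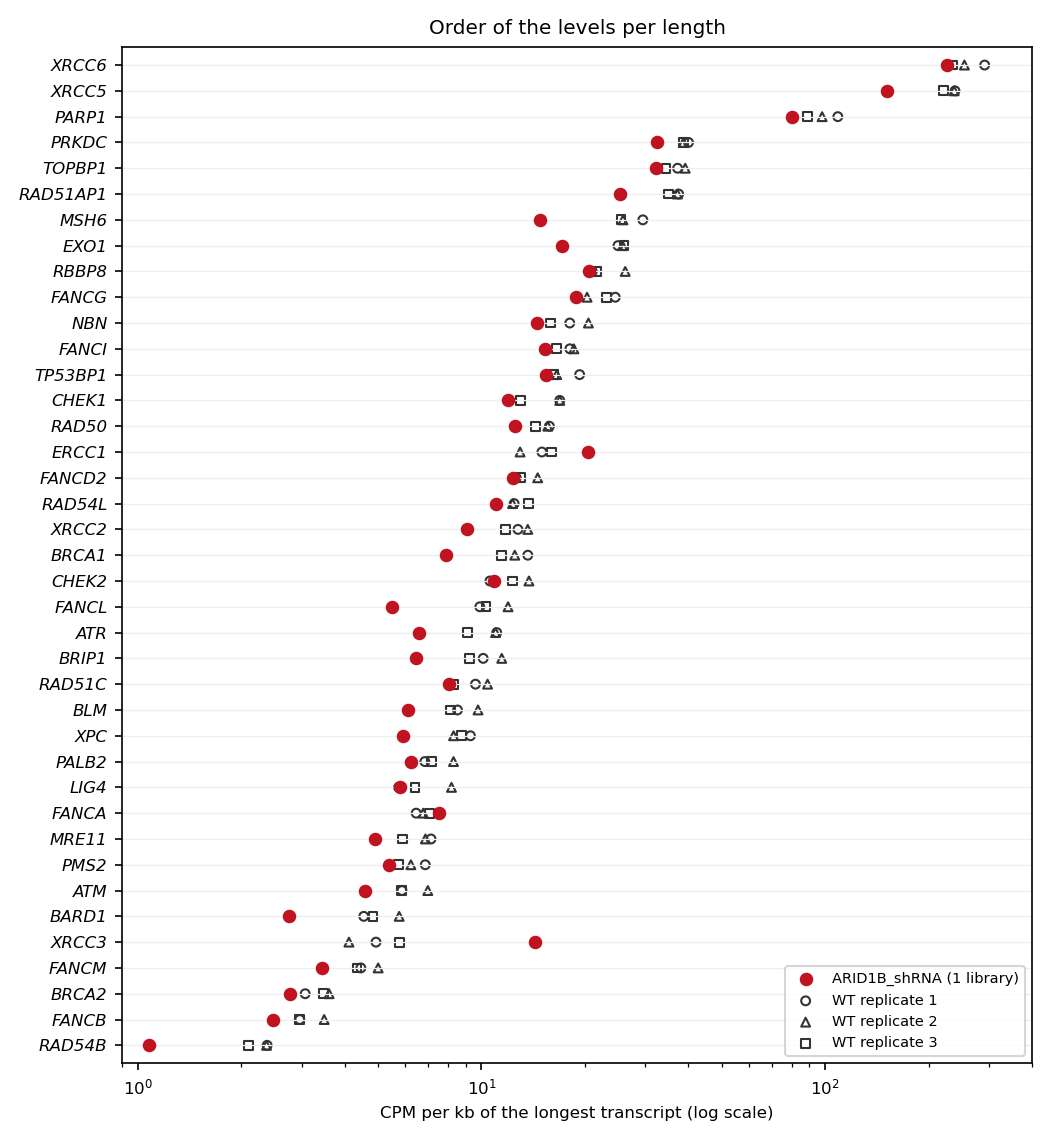
Level of each gene in each library as CPM per kb of its longest transcript, on a log axis, ordered from top to bottom by the wild-type mean; filled points are the library labelled ARID1B shRNA and open symbols the wild-type libraries. XRCC6, XRCC5 and PARP1 lie above the rest, and XRCC3 is the gene whose filled point lies farthest right of its open symbols.

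Beyond the 39, the other genes of the same pathways seldom passed. Of 124 tested genes in 7 lists of other repair genes 2 rose and 0 fell by edgeR, against 3.65% and 0.834% of all tested genes. DESeq2 likewise called 0 lower and called 7 higher, against 2.47% and 7.72% of all tested genes. At an unadjusted p below 0.05 edgeR had 16 lower, against 9.79% of all tested genes, and 10 higher. FAAP20, a ubiquitin-binding subunit of the Fanconi core complex, rose to 35.6 CPM in the library labelled ARID1B shRNA, against 7.06, 6.03 and 9.57 CPM in wild type (edgeR log2 fold change 2.23, SE 0.30, adjusted p = 0.0274). It passed with the trend removed (1.26, adjusted p = 0.0360) but not without wild-type library 2 (0.0541), nor, with the trend removed, without library 2 or 3 (0.0912 and 0.143). H2AX, the histone variant phosphorylated at breaks, rose to 55.5 CPM against 11.6, 11.1 and 14.1 CPM (edgeR log2 fold change 2.18, adjusted p = 0.0183), and with the trend removed it did not pass (0.60, edgeR adjusted p = 0.194). The 29 other recombination genes had 0 calls and a median of -0.14, the 16 other Fanconi genes 1 call higher and 0.032, the 5 other mismatch repair genes 0 calls and -0.56, and the 21 other checkpoint genes 1 call higher and -0.14. The 11 tested genes of end joining, the 20 of nucleotide excision repair and the 22 of base excision and direct repair had 0 calls, with medians of -0.15, -0.19 and 0.10. Removing the trend turned the sign of the medians of the Fanconi (-0.11), end joining (0.078), nucleotide excision (0.025) and base excision and direct repair lists (-0.064). The medians of the recombination, mismatch repair and checkpoint lists were then -0.11, -0.32 and -0.093. Over these lists 1 gene was called higher without wild-type library 2, 3 without library 3, and 1 with the trend removed, and 0 lower in each.

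Many proliferation genes lay below wild type beside the repair genes. Of 21 S-phase genes 15 lay below every wild-type library, with a median log2 fold change of -0.45. Of 15 genes of G2 and mitosis 11 lay below, with a median of -0.45. Over all tested genes 37.9% lay below every wild-type library, and the median was -0.051. The medians of the S-phase and the G2 and mitosis lists without the trend were -0.41 and -0.26, against -0.062 over all tested genes. Neither list had a gene that fell by edgeR as measured. At an unadjusted edgeR p below 0.05, 9 and 4 were lower, against 9.79% of all tested genes. DESeq2 called MCM3 and MCM6 lower, against 2.47% of all tested genes. MCM3, a subunit of the replicative helicase named with its partner MCM6 after the values were seen, had an edgeR log2 fold change of -0.84 as measured (adjusted p = 0.0504) and -0.90 without the trend (0.0380). MCM6 had -0.89 and -0.71 (edgeR adjusted p = 0.0527 and 0.0573). CDT1, a replication licensing factor at 64.9% GC, rose to 35.4 CPM against 8.46, 7.81 and 11.5 CPM (edgeR log2 fold change 1.93, adjusted p = 0.0310; 0.46 and 0.233 with the trend removed). With the trend removed, MCM3 was no longer called lower when wild-type library 2 or library 3 was left out. The part of cell-cycle phase in the lower repair genes was not tested. Of 14 tested p53 targets 3 rose: GADD45A to 66.8 CPM against 13.5, 13.9 and 15.6 CPM, the CDK inhibitor gene CDKN1A to 351 CPM against 67.2, 86.8 and 48.4 CPM, and BBC3 to 12.5 CPM against 1.47, 0.850 and 1.89 CPM (edgeR adjusted p = 0.0181, 0.0274 and 0.0289), where 3.65% of all tested genes were called higher. The other 11 did not pass, and 5 of the 14 lay below every wild-type library, against 37.9% of all tested genes. The median log2 fold change of the 14 was 0.26 as measured and -0.11 with the trend removed, when 9 of 14 were negative. GADD45A also passed with the trend removed (2.22, edgeR adjusted p = 0.0164), whereas CDKN1A and BBC3 missed the threshold (1.86 and 1.36, with adjusted p-values of 0.130 and 0.0806). In that fit GADD45A did not pass without wild-type library 3 (edgeR adjusted p = 0.100) and lay just under the threshold without library 2 (0.0497). As measured, BBC3 did not pass without wild-type library 3 (edgeR adjusted p = 0.0502) and lay at the threshold without library 2 (0.050). CDT1 as measured did not pass without library 2 (edgeR adjusted p = 0.0577).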

How the data were processed

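Single reads of 100 nucleotides from poly(A)-selected RNA were counted by the authors, and the deposited files, 1 for each library, hold unnormalized whole-number read counts for 57820 gene identifiers. The submitters' processing notes name HISAT2, HTSeq, DESeq2, bcl2fastq and the build GRCh37 (hg19); of tool versions, annotation release, counting mode and strand setting, each is not given in the sources used here. The 5 closing summary lines of a file are no genes and were dropped; reads outside genes amounted to 5.27% in the library labelled ARID1B shRNA and 7.07% to 7.65% in wild type.

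GC content and transcript length came from GENCODE 29 (GRCh38) by unversioned identifier, for 97.6% of tested genes; exon overlap came from the same annotation. Tests used edgeR 4.0.16 in R 4.3.3: filterByExpr (minimum count 10, total 15), TMM scaling, robust glmQLFit and glmQLFTest, Benjamini-Hochberg adjustment over 17024 genes, threshold 0.05. Only wild type supplies residual degrees of freedom (2), and the single library is taken to vary like it. SE is the log2 fold change divided by the square root of F. A loess trend on GC content and length (span 0.3, mean counts from 20 upward) was subtracted per library as an offset. limma 3.58.1 and DESeq2 1.42.0 served as alternatives, with other scalings, filters and each wild-type library left out. The procedure was tested on simulated counts. No libraries were duplicates (chi-square per degree of freedom 23.1 or more).

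The 39 genes, the further lists and the alternatives were chosen with earlier results of these data known. Named were all 39 genes, ARID1B, and per further list up to 3 called genes with the smallest p. Overlapping genes, gene copies, VIM, ZIC2, the other named cell markers, MCM3, MCM6 and gene ratios were added after their values were seen. Of 250 list genes 249 matched an identifier.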

Additional observations from a re-analysis of the deposited data

How the results depend on the processing

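Of the 39 log2 fold changes, 36 were negative under each alternative that kept the GC trend. XRCC3 passed in 8 of its 14 alternatives (adjusted p 3.58e-07 to 0.747). Without 1 wild-type library, 0 (without library 2) to 1 of the 39 genes were called higher, 157 (without library 2) to 1189 (without library 1) genes of all tested (763 with all), 1 to 3 other repair genes and 2 to 4 cell-cycle and p53 genes, and ARID1B had 0.47 to 1.12. DESeq2 called 1734 genes and 1 of the 39 lower (MSH6), upper-quartile scaling 1 lower (MSH6; median of the 39 -0.42, of all tested genes -0.17), and the fit without a filter 3226 genes and 7 lower (BRCA1, BARD1, BRIP1, FANCL, MSH6, ATR and XRCC5). Among the other repair genes DESeq2 called 7 higher, and the fit without a filter 9 higher and 4 lower; of the cell-cycle and p53 genes DESeq2 and upper-quartile scaling each called 2 lower, limma-voom and the later quasi-likelihood method 1, and the fit without a filter 7. Removing the trend on GC and length left 529 called genes, 66.5% of them higher against 81.4% as measured, of which 406 were also called as measured; among the 39 genes 0 were called higher and the median was -0.20, and 1 other repair gene rose, and 1 context gene rose (GADD45A) and 1 fell (MCM3). That fit turned the sign of RBBP8 (0.079), FANCA (-0.25), FANCD2 (0.033) and LIG4 (0.042); the cause was not tested. Added after seeing the data, the same fit without 1 wild-type library called 0 (without library 3) to 864 genes (61 without library 2) and 0 of the 39 higher; of the other repair genes it called 0 to 1 higher and, without library 1, 1 lower, and of the cell-cycle and p53 genes 0 to 1 in each direction. It turned RBBP8 (0.02, 0.13 and 0.082 without libraries 1, 2 and 3), FANCA (-0.28, -0.18 and -0.30), FANCD2 (0.073 and 0.036 without 2 and 3), LIG4 (0.12 and 0.064 without 2 and 3), RAD51C (0.03 without 2) and BRCA2 (0.092 without 3). No paired analysis was possible because the single library labelled ARID1B shRNA carries no replicate number. Its 8792848 reads and lack of a replicate limit every comparison, RAD54B with 29 reads most.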
